A study of Homo sapiens with 6 samples.

Results

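Immediate-early genes are switched on within minutes of a signal without new protein synthesis, and most of them code for transcription factors or for enzymes that end the signal. ERK, the last kinase of the growth factor cascade, acts on them through SRF, which binds CArG boxes. Protein kinase A, the kinase that cAMP turns on, acts through CREB, which binds the cAMP response element (CRE). The lactate receptor GPR81 couples to an inhibitory G protein and lowers cAMP, so both routes are of interest in cells that carry a hairpin against the receptor. The 36 genes described here were taken by name from the deposited table: 7 AP-1 genes, 4 EGR genes, 3 NR4A receptors, 3 IER genes, 5 DUSP phosphatases, 4 KLF genes, 5 CREB targets and 5 others. All 36 were among the 26255 gene symbols of the table. CRH was listed at 0 in every library, and 33 reached 0.1 FPKM (fragments scaled by transcript length and by library size) in at least 3 of the 6 libraries and were tested.

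The cells were MDA-MB-231, a human breast cancer line of mesenchymal character with a constantly active ERK cascade. They stably carried a lentiviral hairpin, either the control shNT or one against GPR81 (shGPR81), had been selected with puromycin and were grown in medium with serum, and each group had 3 libraries. No lactate or other agent was added as far as the labels and methods state, and the hairpin of the sequenced cells was not given, so shGPR81 stands for 1 or more of the study's lines. Nothing in the sources used here says that the 3 libraries of a group came from separate cultures, so p-values measure the spread between libraries, which may be technical.

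HCAR1, the gene of GPR81, was at 0.968, 1.02 and 1.36 FPKM in shNT and at 0.978, 0.891 and 0.396 FPKM in shGPR81. The groups overlapped, and the difference of -0.57 on the log2 scale (SE 0.31, limma adjusted p = 0.38) did not pass the test. The study itself reported significantly less GPR81 in its knockdown lines, by RT-qPCR and western blotting. In reads HCAR1 had 37, 40 and 52 in shNT and 40, 36 and 16 in shGPR81, a depth-corrected ratio of 0.677 with a 95% Clopper-Pearson interval of 0.513 to 0.892 that covers counting error only. Replicate 3 of shGPR81 held the lowest value, and without it the log2 difference was -0.22 (limma adjusted p = 0.677). VIM, the mesenchymal filament vimentin, was at 3211 to 4443 FPKM over all libraries. It made up most of the summed level of 8 mesenchymal markers, 4068 to 4886 FPKM in shNT and 4880 to 5447 FPKM in shGPR81. Of these 8, 7 were tested, and SPARC was too low (mean 0.08 FPKM). MSN rose (log2 0.30, limma adjusted p = 0.0378), and CD44 was lower in every shGPR81 library (log2 -0.20, limma adjusted p = 0.0566). ESR1, PGR and CDH1, which mark luminal epithelial cells, were listed at 0. The summed level of the 9 luminal markers was 82.88 to 108.7 FPKM in shNT and 115.8 to 134.5 FPKM in shGPR81, most of it from KRT19, and 6 of the 9 were above 0.1 FPKM in at least 3 libraries. Among these 6, KRT19 and ERBB3 rose and TFF1 fell (limma adjusted p under 0.05), and their part in the results was not tested. Library shNT replicate 1 stood apart by base composition: its median deviation from the shNT mean was -0.21 on the log2 scale over the 1106 genes with at least 60% GC in the transcript and 0.08 over the 3457 genes below 45%. Relative depth was 1 to 1.07 from the steps in the low values, and the absolute depth is unknown from FPKM. In bulk RNA, fewer cells with a transcript and less of it per cell cannot be told apart.

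Windows of 250 bases before the annotated start were taken from RefSeq for 27 of the 36 genes and placed on GRCh37 by exact match. No promoter entry was found for FOSL1, EGR3, NR4A2, IER3, DUSP4, DUSP5, KLF10, CRH and MYC, so these have no window. The sequences of 3 genes that rose in shGPR81 (EGR1, JUN and SGK1) and of the 2 genes with a complete CRE (DUSP1 and JUND) are shown, since they show how different the control regions of these genes are. Each runs 5′ to 3′ on the strand of its gene and ends at the base before the start. Capitals mark matches to the CRE, to its first 5 letters (called the short CRE) or to the CArG box.

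EGR1 (chr5:137800918-137801167, plus strand): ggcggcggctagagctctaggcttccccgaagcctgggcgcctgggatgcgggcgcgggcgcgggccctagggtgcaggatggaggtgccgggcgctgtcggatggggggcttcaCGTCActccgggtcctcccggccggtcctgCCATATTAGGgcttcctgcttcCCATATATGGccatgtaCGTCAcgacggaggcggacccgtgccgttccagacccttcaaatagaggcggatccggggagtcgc
JUN (chr1:59249720-59249969, minus strand): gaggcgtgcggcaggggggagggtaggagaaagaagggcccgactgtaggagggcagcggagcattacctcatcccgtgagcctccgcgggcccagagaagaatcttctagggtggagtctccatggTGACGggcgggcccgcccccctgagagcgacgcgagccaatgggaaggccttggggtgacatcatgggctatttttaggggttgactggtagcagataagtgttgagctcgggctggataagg
SGK1 (chr6:134496005-134496254, minus strand): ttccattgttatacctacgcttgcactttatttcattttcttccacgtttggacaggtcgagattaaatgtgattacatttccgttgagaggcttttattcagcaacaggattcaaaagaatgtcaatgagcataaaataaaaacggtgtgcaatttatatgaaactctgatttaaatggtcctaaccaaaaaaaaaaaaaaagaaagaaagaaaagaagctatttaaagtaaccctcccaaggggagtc
DUSP1 (chr5:172198199-172198448, minus strand): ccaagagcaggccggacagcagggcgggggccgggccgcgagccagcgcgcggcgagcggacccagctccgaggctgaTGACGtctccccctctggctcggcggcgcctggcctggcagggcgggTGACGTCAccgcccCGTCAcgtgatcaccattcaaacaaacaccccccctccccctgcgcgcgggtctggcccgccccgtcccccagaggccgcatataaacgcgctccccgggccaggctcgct
JUND (chr19:18392433-18392682, minus strand): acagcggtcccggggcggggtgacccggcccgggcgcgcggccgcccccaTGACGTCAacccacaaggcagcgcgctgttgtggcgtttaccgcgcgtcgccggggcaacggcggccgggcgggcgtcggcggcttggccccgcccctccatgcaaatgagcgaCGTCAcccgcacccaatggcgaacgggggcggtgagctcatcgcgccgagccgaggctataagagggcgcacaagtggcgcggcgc

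The window of EGR1 held a pair of CArG boxes, from 105 to 96 and from 83 to 74 bases before the start, between short CREs at 135 to 131 and 66 to 62 bases. JUN held a single short CRE at 123 to 119 bases, and SGK1 held none of the motifs. Motifs were searched as letters on both strands: the CRE as TGACGTCA, the short CRE as TGACG, the AP-1 site as TGAGTCA, the EGR site as GCGTGGGCG and the CArG box by its usual definition. The short CRE lies within the complete one and is counted there too. It occurred in 16 of 27 windows (59.3%), against 21.2% of all 35116 windows of the RefSeq table. The complete CRE occurred in 2 (7.41%, against 1.65%), and the CArG box in 2, EGR1 and SRF (7.41%, against 1.16%). The AP-1 and EGR sites occurred in 0 of the 27, against 4.2% and 0.72% of all windows. A match is a run of letters and not a bound site, and RefSeq gives 1 start for genes such as CREM, SGK1 and PPARGC1A that have several.

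**Figure D1:**
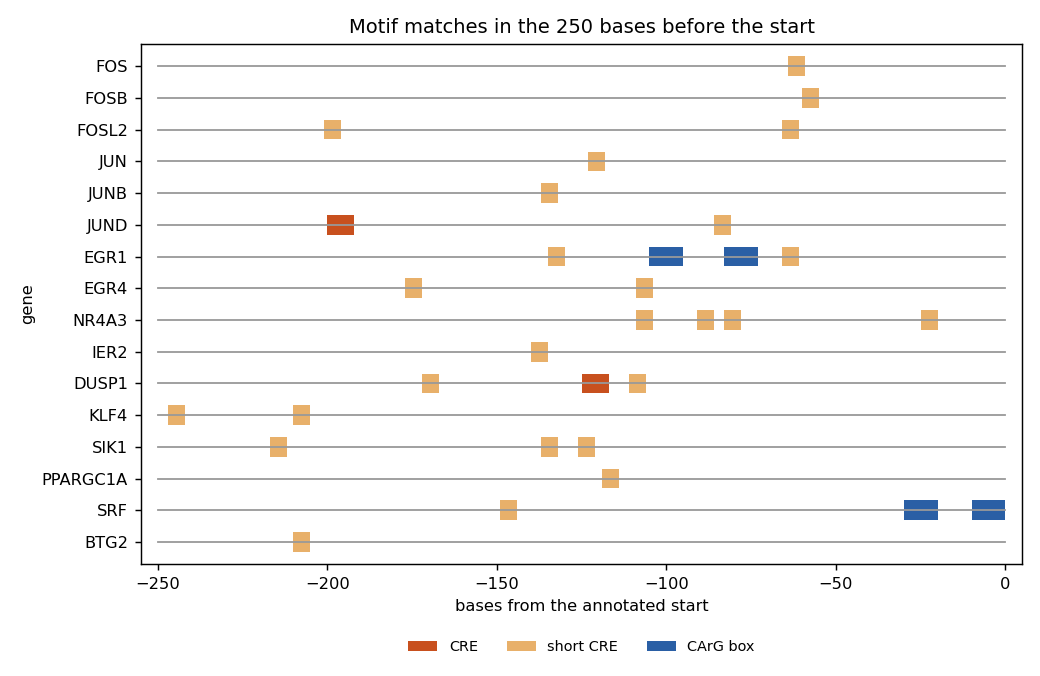
Positions of motif matches, in bases from the annotated start, in the 16 of 27 windows of 250 bases that hold any match, with 1 line per gene. Orange bars are complete CREs (DUSP1 and JUND), light bars are short CREs and blue bars are CArG boxes (EGR1 and SRF).

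Levels of these genes in the sequenced cells spanned a wide range. By mean FPKM over the 6 libraries the highest were IER3 (349), FOSL1 (192), DUSP4 (143), DUSP5 (138) and DUSP6 (83.3), which are a survival factor, an AP-1 subunit and 3 phosphatases that act on ERK. The AP-1 genes were far from even: FOSL1 was followed by JUN (49.6), JUND (42.5), FOSL2 (35.7) and JUNB (17.6), while FOS was at 2.13 FPKM and FOSB at 0.406. At the low end EGR2, EGR3, EGR4 and NR4A3 had means of 0.134, 0.100, 0.0219 and 0.0381 FPKM. EGR4 was listed at 0 in 4 libraries, 3 of them shGPR81. No change in EGR4, NR4A3 or CRH was detectable at this depth.

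The comparison of shGPR81 with shNT, made on log2(FPKM + 0.1), a scale that understates the change of low genes, asks whether the hairpin against the receptor goes with a change in these genes. A gene was called when its adjusted p was under 0.05 and its fold change over 1.5. Of the 33 tested genes 0 passed both in either direction (limma, Benjamini-Hochberg adjustment over 14349 genes), where 0.955% of all tested genes were called higher and 1.59% lower. At an adjusted p under 0.05 alone, the sense in which "rose" and "fell" are used here, DUSP5, EGR1, JUN, SGK1 and FOSL1 rose. These 5 are 15.2% of the tested members, where 2.06% of all tested genes rose, and 0 fell, where 3.07% did. At an unadjusted p under 0.05, 10 of the 33 were higher and 3 lower (10.1% and 9.43% of all tested genes). In 10 genes all 3 shGPR81 values lay above all 3 shNT values (30.3%, against 12.9% of all tested genes), and in 5 they lay below (15.2%, against 12.7%). The median log2 fold change of the 33 was 0.09, against 0.01 over all tested genes. With 3 against 3 libraries the exact two-sided permutation test allows no p below 0.1. Each of these 15 genes reached 0.1, as any gene without overlap between the groups must, so the test adds nothing here.

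**Figure D2:**
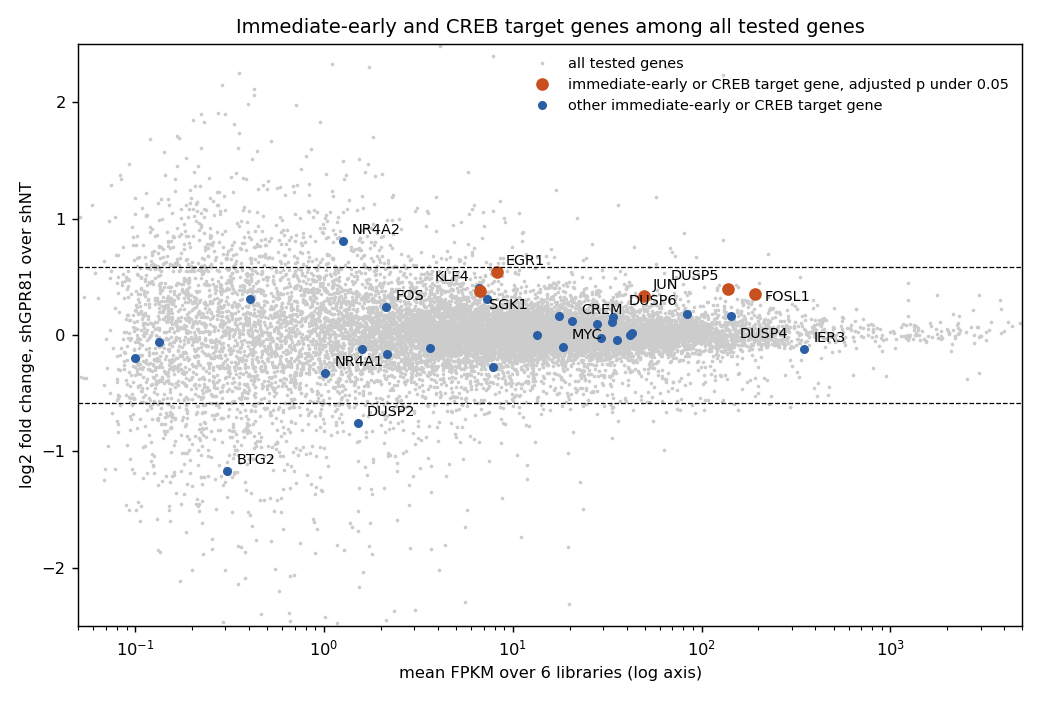
Log2 fold change of shGPR81 over shNT (y axis) against mean FPKM over 6 libraries (x axis, log scale) for all tested genes in grey and for the 33 tested genes in colour, with dashed lines at a fold change of 1.5. The 5 genes at an adjusted p under 0.05 lie above 0 and inside the lines, and the 53 genes beyond the axes, none of them one of the 33, are not drawn.

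Among the DUSP phosphatases, which remove phosphate from MAP kinases and so limit the signal that induces them, DUSP5 rose. DUSP5 holds ERK in the nucleus in its inactive form. It was at 114, 119 and 124 FPKM in shNT and at 157, 155 and 159 FPKM in shGPR81. The groups lay well apart, with means of 119 ± 4.97 and 157 ± 2.20 FPKM (SD, n = 3), a 1.32-fold rise (log2 0.40, SE 0.05, limma adjusted p = 0.00449). The nuclear phosphatase DUSP4 was at 132, 135 and 139 FPKM against 150, 153 and 150 FPKM. DUSP6, the cytoplasmic phosphatase of ERK, was at 75.9, 79 and 79.7 FPKM against 88.3, 87.7 and 89.2 FPKM. Both had higher values in every shGPR81 library than in any shNT library, but their differences of 0.16 (SE 0.04) and 0.18 (SE 0.04) on the log2 scale did not pass (limma adjusted p = 0.0873 and 0.0681).

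The remaining pair of the family lay on the other side. DUSP1, which acts mainly on the stress kinases p38 and JNK, was at 7.50, 9.11 and 9.29 FPKM in shNT and at 7.16, 7.10 and 7.02 FPKM in shGPR81. The shGPR81 libraries were nearly equal and below all shNT libraries, with a log2 difference of -0.27 (SE 0.09, limma adjusted p = 0.165). DUSP2, a nuclear phosphatase best known from lymphocytes, was at 1.77, 2.06 and 1.91 FPKM in shNT and at 0.871, 1.07 and 1.39 FPKM in shGPR81, which stand for 36, 43 and 39 reads and for 19, 23 and 30 reads. The groups did not overlap, and the log2 difference of -0.75 (SE 0.18) exceeded the fold threshold, while the adjusted p (0.0606, limma) missed 0.05. Reads were recovered as the lowest whole numbers in the ratio of the 6 values, depth included. From them the ratio of DUSP2 was 0.580 after correction for depth, with a 95% Clopper-Pearson interval of 0.426 to 0.783 that covers counting error only.

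**Figure D3:**
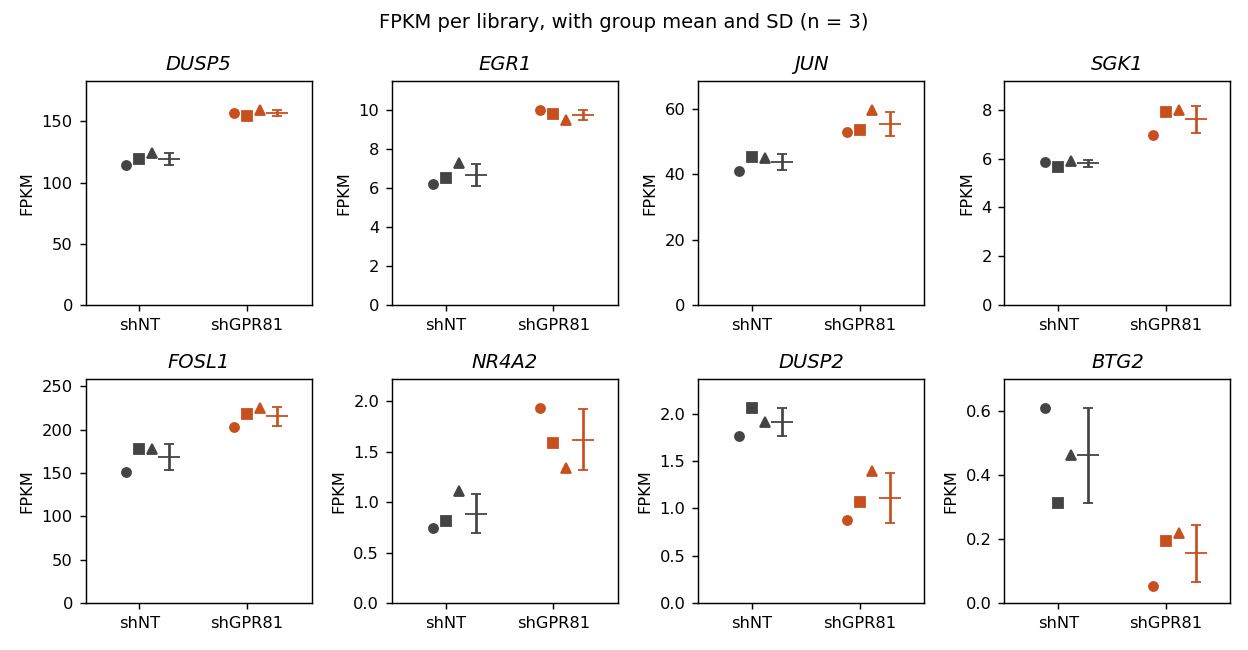
FPKM (y axis, from 0) in each shNT and shGPR81 library (circle, square and triangle for replicates 1, 2 and 3) with the group mean and SD (n = 3) beside the points. DUSP5, EGR1, JUN, SGK1, FOSL1 and NR4A2 are higher in every shGPR81 library and DUSP2 and BTG2 lower, and the first 5 passed an adjusted p under 0.05.

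Of the EGR genes, zinc finger factors that SRF induces, EGR1 rose. It was at 6.19, 6.52 and 7.27 FPKM in shNT and at 9.96, 9.76 and 9.47 FPKM in shGPR81. The shGPR81 libraries varied less than the shNT libraries and all lay higher, with means of 6.66 ± 0.554 and 9.73 ± 0.245 FPKM (SD, n = 3). The rise was 1.46-fold (log2 0.54, SE 0.08, limma adjusted p = 0.0103), and its 95% interval of 0.36 to 0.73 on the log2 scale includes the fold threshold of 0.585. EGR2 and EGR3 were both near 0.1 FPKM with overlapping groups, at log2 differences of -0.06 (SE 0.32) and -0.20 (SE 0.32).

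Among the AP-1 genes, whose products pair as FOS and JUN proteins on the AP-1 site, JUN and FOSL1 rose. JUN was at 41, 45.4 and 45 FPKM in shNT and at 52.8, 53.7 and 59.6 FPKM in shGPR81. All shGPR81 values lay higher, a 1.26-fold rise (log2 0.34, SE 0.07, limma adjusted p = 0.0326). FOSL1, the FOS family member typical of mesenchymal breast cancer cells, was at 151, 178 and 177 FPKM in shNT and at 203, 218 and 225 FPKM in shGPR81. Replicate 1 was the lowest library of FOSL1 in each group, and the rise was 1.28-fold (log2 0.36, SE 0.08, limma adjusted p = 0.0436).

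The other AP-1 genes overlapped between the groups. FOS, the classic immediate-early gene, was at 2.23, 1.45 and 2.19 FPKM in shNT (60, 40 and 59 reads) and at 2.67, 2.28 and 1.97 FPKM in shGPR81 (77, 65 and 56 reads). The read ratio was 1.18 with a 95% Clopper-Pearson interval of 0.955 to 1.47, and the log2 difference was 0.24 (SE 0.19). JUNB, JUND, FOSL2 and FOSB had log2 differences of 0.17, 0.02, -0.04 and 0.31, with standard errors of 0.14, 0.14, 0.06 and 0.30. JUND, the AP-1 gene with the highest GC content (69.9%), ranged from 33.7 to 50.0 FPKM within shNT alone.

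The NR4A genes, orphan nuclear receptors that cAMP induces strongly in many tissues, lay on both sides of 0. NR4A2 was at 0.741, 0.809 and 1.11 FPKM in shNT (34, 38 and 51 reads) and at 1.93, 1.59 and 1.34 FPKM in shGPR81 (95, 77 and 65 reads). Every shGPR81 library had more reads than any shNT library, and the read ratio was 1.83 (95% Clopper-Pearson interval 1.47 to 2.29). In the fit over all genes its log2 difference of 0.81 (SE 0.20) was past the fold threshold and missed the other (limma adjusted p = 0.0681). NR4A1 was at 1.12, 1.07 and 1.22 FPKM in shNT and at 0.729, 1.07 and 0.885 FPKM in shGPR81, where the nearest libraries of the groups were almost equal and the log2 difference was -0.33 (SE 0.17, limma adjusted p = 0.359). NR4A3 was at 0.0267, 0.0593 and 0.0133 FPKM against 0.0624, 0.0379 and 0.0288 FPKM and was not tested.

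Of the 5 genes grouped here as CREB targets, 0 of the 4 tested rose or fell (limma), and 0 had an unadjusted p under 0.05. Over all tested genes 2.06% rose, 3.07% fell, and 10.1% were higher and 9.43% lower at an unadjusted p under 0.05, so a count of 0 among 4 genes does not set them apart. CREM codes for CREB-like activators and, from an inner promoter that cAMP induces, for the repressor ICER, which 1 value per gene symbol cannot separate. It was at 21.4, 18.7 and 19.2 FPKM in shNT and at 22.6, 20.5 and 21.1 FPKM in shGPR81, a log2 difference of 0.12 with a 95% interval of -0.05 to 0.29. PER1, a circadian clock repressor, was at 1.93, 2.61 and 2.33 FPKM against 1.94, 2.22 and 1.92 FPKM, with an interval of -0.49 to 0.17 on the log2 scale. SIK1, a kinase that cAMP induces and that holds back the CREB coactivators, was at 3.59, 3.95 and 3.85 FPKM against 3.39, 3.80 and 3.34 FPKM, with an interval of -0.34 to 0.11. PPARGC1A, the coactivator of mitochondrial genes, lay between 1.32 and 1.76 FPKM in all libraries, at a log2 difference of -0.12 (SE 0.13). The intervals of CREM, PER1 and SIK1 lay inside the fold threshold of 0.585 in both directions. CRH, the hypothalamic hormone gene used as a CREB reporter, was listed at 0. The group leaves out the NR4A genes and genes with a CRE match such as DUSP1 and EGR1, which are given with their families. The windows of SIK1 and PPARGC1A held short CREs, and those of CREM and PER1 held none of the motifs.

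**Figure D4:**
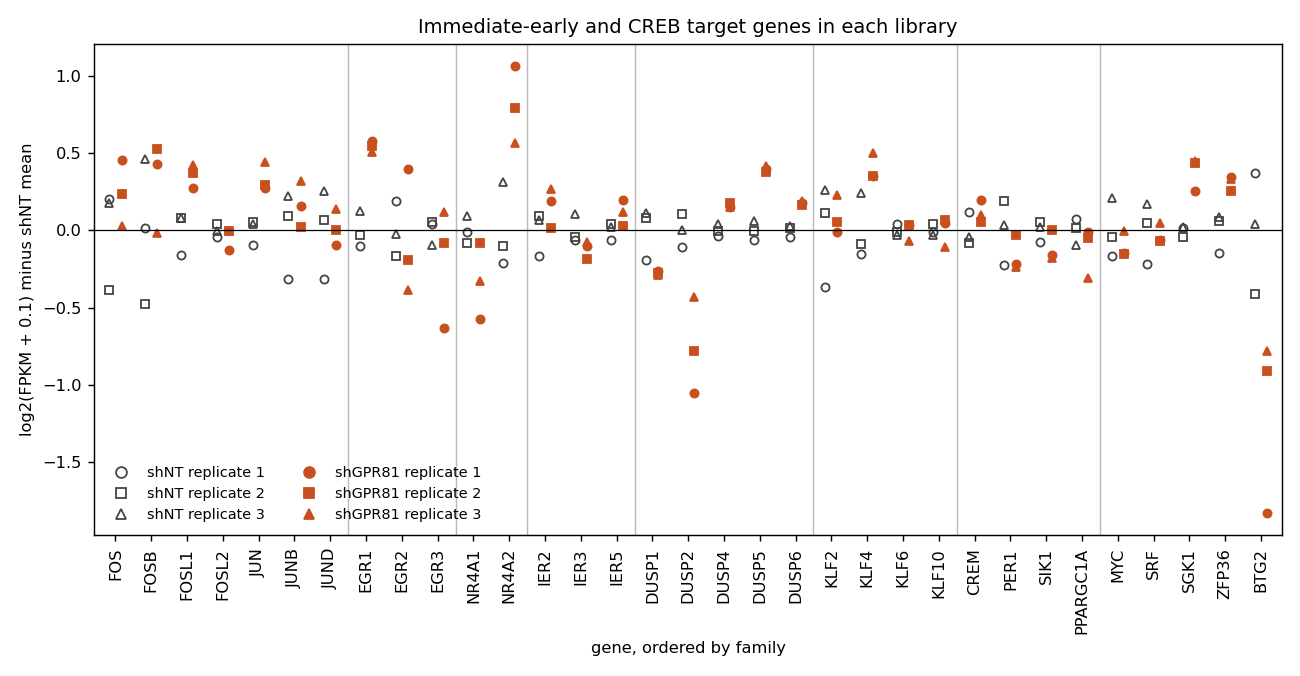
Value of each tested gene in each library as log2(FPKM + 0.1) minus the shNT mean of that gene, with genes in family order, open marks for shNT, filled marks for shGPR81 and 1 shape per replicate number. Filled marks lie wholly above the open ones in 10 genes, among them EGR1, DUSP4, DUSP5, DUSP6 and SGK1, and wholly below in 5 (12.9% and 12.7% of all tested genes). The marks of the CREB targets CREM to PPARGC1A overlap.

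SGK1, a kinase of ion transport and survival that serum and glucocorticoids induce, rose. It was at 5.88, 5.64 and 5.90 FPKM in shNT and at 6.96, 7.89 and 7.98 FPKM in shGPR81, a ratio of 1.30 (log2 0.38, SE 0.08, limma adjusted p = 0.0415), with groups clear of each other. ZFP36, which speeds the decay of AU-rich messages, was at 5.82, 6.73 and 6.85 FPKM against 8.24, 7.72 and 8.16 FPKM. Its groups did not overlap, and its log2 difference of 0.31 (SE 0.09) did not pass (limma adjusted p = 0.0926).

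BTG2, an antiproliferative gene that p53 and growth signals induce, had the largest fold change in size of the 33 and one of the lowest levels. It was at 0.608, 0.311 and 0.463 FPKM in shNT and at 0.0541, 0.192 and 0.219 FPKM in shGPR81, which stand for 21, 11 and 16 reads against 2, 7 and 8. The groups did not overlap, and the read ratio was 0.336 (95% Clopper-Pearson interval 0.181 to 0.596). The log2 difference of -1.17 (SE 0.36) did not pass (limma adjusted p = 0.125), and its size ranged from -1.66 to -0.34 with the offset added before the logarithm. MYC and SRF, the growth regulator and the factor that drives CArG boxes, overlapped between the groups at log2 differences of -0.10 (SE 0.10) and -0.03 (SE 0.10).

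The KLF genes are zinc finger factors, KLF2 and KLF4 being known from vessels and stem cells and KLF6 and KLF10 from injury and TGF-beta responses. KLF4 was at 5.08, 5.32 and 6.69 FPKM in shNT and at 7.25, 7.24 and 8.04 FPKM in shGPR81, without overlap, at a log2 difference of 0.40 (SE 0.12, limma adjusted p = 0.107). KLF6 and KLF10 differed least of all 33, both by 0.00 on the log2 scale with standard errors of 0.05 and 0.07. KLF2 ranged from 20.8 to 32.3 FPKM within shNT and overlapped. IER3, the most abundant of the 36, was at 348, 353 and 390 FPKM against 338, 319 and 345 FPKM, just without overlap, and its log2 difference was -0.12 (SE 0.06, limma adjusted p = 0.347). IER2 and IER5 were between 28.6 and 38.6 FPKM in all libraries, with overlapping groups.

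Variation between libraries touched many of these genes at once. Of the 22 with a mean of at least 5 FPKM, 18 had their lowest shNT value in replicate 1 and 14 their highest in replicate 3. In shGPR81 13 had their highest value in replicate 3 and 11 their lowest in replicate 2. Over IER2, JUNB, JUND, KLF2 and SRF, the 5 of the 22 with at least 60% GC, the median deviation of shNT replicate 1 was -0.32 on the log2 scale. Without shNT replicate 1, DUSP5, EGR1, JUN, SGK1 and FOSL1 rose, where 2.94% of all genes in that fit did. DUSP1 fell (log2 -0.37, limma adjusted p = 0.0208), where 4.23% did, and the median log2 fold change of the tested members was 0.03. After each library was corrected for GC content, an alternative chosen after the data were seen, 10 genes rose and 2 fell (limma adjusted p under 0.05), against 4.92% and 5.58% of all genes in that fit. The 5 further rises were NR4A2 (adjusted p = 0.0389, past the fold threshold too), DUSP4 (0.0279), DUSP6 (0.0422), KLF4 (0.0281) and ZFP36 (0.0138), and the falls were DUSP1 (0.0387) and DUSP2 (0.0208, past the fold threshold too).

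The rises also rested on single libraries to different degrees. DUSP5 kept an adjusted p under 0.05 with each of the 6 libraries left out in turn, at 0.00341 to 0.0338 (limma). EGR1 lost it when shNT replicate 2 (0.0565) was left out, and likewise for replicates 1 (0.0582) and 2 (0.0559) of shGPR81. JUN, FOSL1 and SGK1 kept it without shNT replicate 1 (0.0352, 0.025 and 0.0457) and lost it without any other library, with values up to 0.104, 0.151 and 0.16. DUSP2 passed both thresholds without shGPR81 replicate 3 (0.0421), as did EGR1 (0.0111) and NR4A2 (0.0465) without shNT replicate 3.

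Other genes of these pathways were counted from lists compiled by hand. Among 13 delayed genes of the ERK response, 11 were higher in shGPR81, 9 of them without overlap (69.2%, against 12.9% of all tested genes), and the median log2 fold change was 0.15, against 0.01 over all. At an adjusted p under 0.05 3 rose (23.1%, against 2.06% of all tested genes) and 0 fell (limma), and 5 were higher and 1 lower at an unadjusted p under 0.05. EPHA4, an ephrin receptor, passed both thresholds, at 2.43, 2.20 and 2.43 FPKM in shNT and 4.55, 4.71 and 4.49 FPKM in shGPR81 (log2 0.94, SE 0.09, limma adjusted p = 0.00213). The feedback inhibitors SPRY4 and SPRY2 rose without reaching a fold change of 1.5, with log2 values of 0.45 (SE 0.05, limma adjusted p = 0.00266) and 0.30 (SE 0.05, 0.0198). SPRED1, another feedback inhibitor, lay below shNT in every library at -0.19 (SE 0.07, 0.187). SPRY2, SPRY4 and SPRED1, like MSN, CD44, KRT19, ERBB3 and TFF1 above, were chosen after their values were seen.

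**Figure D5:**
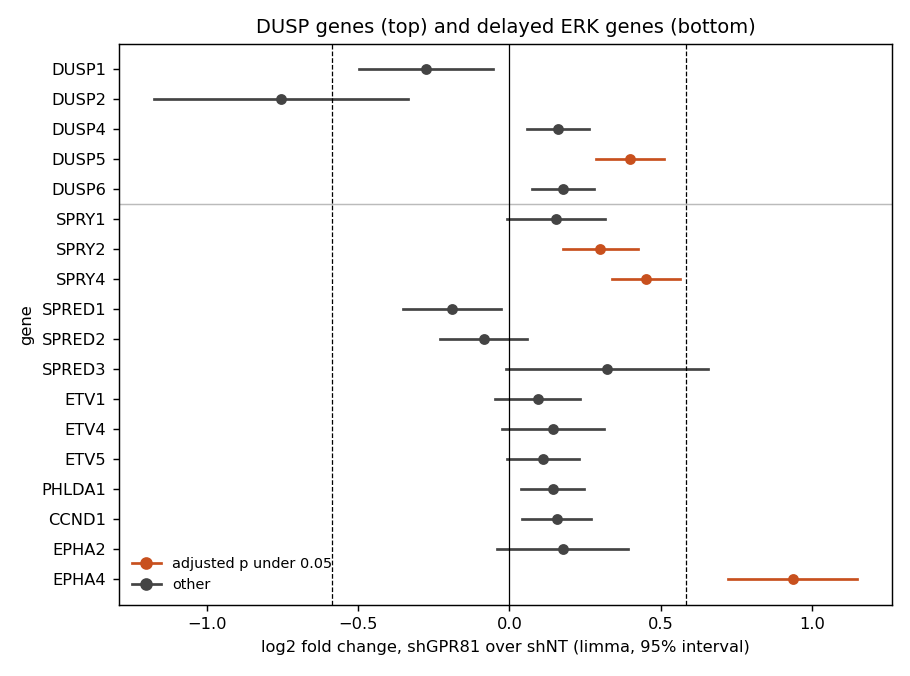
Log2 fold change of shGPR81 over shNT with its 95% interval from limma (x axis) for the 5 DUSP genes above the grey line and 13 delayed ERK genes below it, with dashed lines at a fold change of 1.5. DUSP4, DUSP5, DUSP6 and 11 of the 13 delayed genes lie above 0, DUSP1 and DUSP2 below it, and orange marks an adjusted p under 0.05 (DUSP5, SPRY2, SPRY4 and EPHA4).

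Of 32 further immediate-early genes, RHOB, HES1 and PLK2 fell (log2 -0.57, -0.38 and -0.22, limma adjusted p = 0.00663, 0.0221 and 0.0297), none of them past the fold threshold, and the median was 0.04. These 3 were chosen after their values were seen. In the list of 18 genes for CREB, its coactivators and protein kinase A, PKIA, an inhibitor of protein kinase A, was the 1 gene past both thresholds. It was at 3.61, 3.28 and 3.43 FPKM in shNT and at 5.53, 5.30 and 5.53 FPKM in shGPR81 (log2 0.65, SE 0.08, limma adjusted p = 0.00545). PKIG and PKIB, which code for further inhibitors of this kinase, had lower means in shGPR81, with overlapping groups. PKIG had means of 33.9 FPKM in shNT and 27.5 FPKM in shGPR81 (log2 -0.30, SE 0.10, limma adjusted p = 0.163). PKIB was near the floor, at 0.122 and 0.0383 FPKM (log2 -0.74, SE 0.44, limma adjusted p = 0.428). CREB1 itself overlapped between the groups, at -0.06 on the log2 scale. By limma 0 of the 20 SRF partners and ERK kinases rose or fell, with 1 higher at an unadjusted p under 0.05. Of 16 other cAMP-responsive genes 8 were tested, and 0 rose or fell (limma). At an unadjusted p under 0.05 (limma) 2 of these 8 were lower and 0 higher. The 2 were PDE4D (log2 -0.32) and BDNF (log2 -0.28), both without overlap (25%, against 12.7% of all tested genes). Of 9 AP-1 partners 7 were tested, and 0 passed either level (limma). The 10 heat shock genes, which stress induces, had a summed level of 3650 to 3812 FPKM in shNT and of 3601 to 3788 FPKM in shGPR81. Most of it came from HSPA8 and HSP90AA1. By limma 0 passed an adjusted p of 0.05, and 2 were lower and 1 higher at an unadjusted p under 0.05. HSPA1A differed most, at means of 2.70 FPKM in shNT and 1.49 FPKM in shGPR81 (log2 -0.83, limma adjusted p = 0.0775). PDE4D, BDNF and HSPA1A were chosen after their values were seen. Over all tested genes the shares were 2.06% higher and 3.07% lower at the adjusted level, and 10.1% and 9.43% at the unadjusted level.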

How the data were processed

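Total RNA was made into 6 libraries with a stranded mRNA kit and these were sequenced. The authors deposited 1 table of FPKM values per gene symbol, with no counts and no columns of comparisons. The submitters' processing notes name TopHat2 2.0.13, Bowtie2 2.2.3, SAMtools 0.1.19 and Cuffnorm 2.2.1. They list a mouse build, while the methods of the study name a human build, and the cells are human. Normalization by Cuffnorm scales each library as a whole and does not correct for GC content. The study tested read counts, and FPKM cannot enter a count test, so limma 3.58.1 in R 4.3.3 was fitted to log2(FPKM + 0.1) with group as the only term and an intensity trend, over the 14349 genes at or above 0.1 FPKM in 3 or more libraries. P-values were Benjamini-Hochberg adjusted and two-sided. Whole reads were recovered from the steps of the values for 3240 of 15931 genes above 0 in at least 3 libraries (relative tolerance 0.0001), too few for a count test. Fold intervals on reads are Clopper-Pearson intervals at 95%. Clopper-Pearson intervals used SciPy 1.17.1, exact permutation tests were run in R, and the code was tested on simulated data. Promoter windows and motifs came from the RefSeq promoter table, matched to GRCh37.

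Values in every library are given for genes at an adjusted p under 0.05, for the 5 with the highest mean FPKM, for the 5 with the largest fold change, and for CREM, PER1, SIK1 and the NR4A genes. Others are given where their groups did not overlap or their family is described. Of the other lists, genes past both thresholds are named. Others of these lists, such as SPRY2, RHOB, PKIG and CREB1, are named beside them by no fixed rule and with their values known. A result for a gene of the further immediate-early list is not reported here. The 36 genes and the lists were chosen with earlier results of these data known. Alternatives were other offsets, filters and scalings, a replicate block, each library left out and a GC correction (a spline with 4 degrees of freedom, fitted where mean FPKM reached 5).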

Additional observations from a re-analysis of the deposited data

How the results depend on the processing

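The median log2 fold change of the 33 genes was above 0 in every alternative run, at 0.0291 to 0.124 with a library left out. With an offset of 1 FPKM, 142 of all genes were called lower and 75 higher. Of the 33, DUSP5, EGR1, JUN, SGK1 and FOSL1 rose and 1 fell (DUSP2, limma adjusted p = 0.0467), against 2.05% and 3.03% of all tested genes. Without a filter 2 of the 33 rose, against 1.35% of all genes in that fit, JUN (0.0504), SGK1 (0.0584) and FOSL1 (0.0729) being lost. FOSL1 was also lost with median centring (0.0528) and SGK1 with quantile normalization (0.0513). In each of these 4 rose, against 1.87% and 2.13% of all tested genes. With the GC correction, 1 was called lower and 1 higher, and 10 rose and 2 fell, against 4.92% and 5.58% of all genes in that fit. With 1 library left out, all genes called lower numbered 110 to 238 and higher 68 to 156. The low counts of lower genes came without shNT replicate 2 (110), shNT replicate 3 (146), shGPR81 replicate 1 (141) and shGPR81 replicate 2 (143), and those of higher genes without shNT replicate 2 (83), shGPR81 replicate 1 (74), shGPR81 replicate 2 (68) and shGPR81 replicate 3 (84). Of the 33, 0 to 1 were called lower and 0 to 2 higher. In these fits 1 to 5 rose and 0 to 1 fell, against 0.691% to 2.94% and 1.2% to 4.23% of all genes. The causes were not tested, and fits without a library hold fewer samples. With the replicate number as a block 4 of the 33 rose, against 1.75% of all tested genes, SGK1 being lost (limma adjusted p = 0.0722). The deviations of same-numbered libraries had r of 0.12, 0.0223 and 0.00577 over 14349 genes, and those of unlike number -0.103 to 0.0834. Whether same-numbered libraries share a batch was not tested. HCAR1 lay at -0.781 to -0.221 on the log2 scale over the alternatives, with adjusted p of 0.275 to 0.677. Genes below 1 FPKM rest on few reads, and 3 libraries per group limit the rest.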
